A study of Mus musculus with 28 samples.

Results

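The 35 genes described here encode complement proteins and blood coagulation factors, listed as proteins that the liver secretes, with the fibrinogen genes left out. They were taken from a list of names matched to Ensembl identifiers, and all 35 were found among the 54446 gene identifiers counted in each library. Coagulation is a relay of plasma proteases that ends in thrombin and a fibrin clot, which inhibitors hold in check and plasmin dissolves. In complement, antibody, microbial sugars or spontaneous turnover lead to cleavage of C3, after which the terminal proteins assemble a pore in the target membrane. Hepatocytes make most of the circulating proteins of both systems.

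Nicotinamide mononucleotide (NMN), a precursor of the coenzyme NAD+, or water was given by gavage for 7 days to male C57BL/6 mice (C57BL6J in the study's methods) aged 8 weeks. In the 1340 mg/kg/d schedule gavage was once daily, and each organ had 4 NMN and 4 water mice. In the 2680 mg/kg/d schedule there were 2 gavages a day, and each organ had 3 NMN mice and 3 water mice. Each schedule had its own water mice, so that dose, number of gavages and sequencing of a schedule cannot be told apart. PolyA RNA of whole liver and kidney was sequenced in 28 libraries with 12688324 to 33872983 reads on genes, and in whole organs fewer cells of a type and less RNA per cell cannot be told apart. Levels of a gene in NMN and water mice are given in CPM, which are read counts scaled to library size with the TMM factors of edgeR for that comparison. Except where TMM is named, levels set across organs, levels of the other organ's transcripts and summed levels are in CPM by library size alone, without these factors. Changes are log2 values of NMN over water with a standard error (SE), and a gene is said to be called where the quasi-likelihood test of edgeR, adjusted over all genes tested, gave an adjusted p under 0.05.

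Some libraries held transcripts of the other organ. The kidney genes Umod, a tubule glycoprotein, and Slc34a1, a phosphate transporter, were at 2.2 to 4.22 CPM and 6.59 to 11.8 CPM in the 8 livers of the 1340 schedule. In the 2680 schedule, NMN liver replicate 1 had 2.84 CPM of Umod and 5.21 CPM of Slc34a1, and the other 5 livers had at most 0.485 and 1.31 CPM. Liver water replicate 3 of the 1340 schedule stood apart in Saa1 and Saa2, acute phase genes, with 6555 and 5446 CPM, against at most 288 and 125 CPM in the other 3 water livers. In the kidneys of the 2680 schedule the NMN libraries were deeper, at 22922994 to 33872983 reads against 16358886 to 18983689 in water. The share of uniquely aligned reads that fell on no gene moved with treatment in this schedule. It was 4.22%, 3.80% and 4.04% in the water livers and 5.91%, 4.54% and 4.86% in the NMN livers, and 9.20%, 8.72% and 8.52% in the water kidneys and 8.03%, 7.96% and 8.24% in the NMN kidneys, without overlap in either organ. In the livers of the 1340 schedule it was 5.52% to 8.28%, apart from NMN replicate 4 at 14.4%, and no member was called there with or without that library. The part of this share in the results at 2680 mg/kg/d was not tested. Mitochondrial genes took a mean of 9.71% and 9.48% of the reads on genes in the water and NMN kidneys at 1340, and 20.57% and 20.35% at 2680. In the livers these means were 4.57% and 5.03% at 1340 and 6.67% and 7.81% at 2680 mg/kg/d. The part of this difference in the comparisons between schedules was not tested.

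The levels of the 35 genes were first compared between the livers and kidneys of water mice, as a check of their description as liver genes. In edgeR, 34 of the 35 were higher in the liver, where 76.3% of all 15912 tested genes were called and 34.4% were higher in the liver. Of these 34, F13b, the carrier subunit of the fibrin-stabilising factor XIII, had the smallest log2 difference, at 1.39 ± 0.10 SE. For F11, the zymogen of the clotting protease factor XIa, the fitted value was 13.18. Its water kidneys held 1 read in the 1340 schedule and 0 in the 2680 schedule, so this value is not an exact fold. The exception among the 35 was C5ar1, the receptor for the complement fragment C5a on myeloid cells, which is a membrane protein. By library size C5ar1 had 0.50 and 0.453 CPM in the water livers of the 1340 and 2680 schedules and 0.768 and 0.685 CPM in the water kidneys. With the TMM factors of the organ comparison its levels were 0.675 and 0.692 CPM in liver and 0.526 and 0.525 CPM in kidney. Its direction therefore depended on the scaling, with a log2 difference (liver minus kidney) of 0.38 ± 0.58 with TMM (adjusted p = 0.558 in edgeR) and -0.59 ± 0.57 by library size (adjusted p = 0.334 in edgeR). Between organs the scaling moved the median log2 difference of all genes from -0.15 with TMM to -1.13 by library size, and the share of genes called higher in liver from 34.4% to 12.9%. The same 34 members were called higher in liver with either scaling, and by library size F13b had a log2 difference of 0.42 ± 0.11. The description as a liver gene therefore did not hold for C5ar1 in these libraries.

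Genes can be compared with each other per length of exon, as reads per kilobase scaled to library size (RPKM). The length took in every exon base annotated in any transcript of a gene, which can exceed the length of its main transcript. It was 2030 bases for Vtn, 5604 for Serpinc1 and 9833 for Masp1, so the order below depends in part on the annotation. On this scale Vtn (vitronectin, an inhibitor of the terminal complement complex) and C3 were the most abundant members in water livers. Vtn had 1778 ± 164 and 1633 ± 167 RPKM (SD, n = 4 and 3) in the 1340 and 2680 schedules, and C3 had 1365 ± 458 and 1649 ± 90.4 RPKM. The order of these genes differed between the schedules, and in both the difference was smaller than the spread. The spread of C3 at 1340 came from water replicate 3, and without it C3 had 1138 ± 67.6 RPKM and Vtn 1745 ± 184 RPKM (SD, n = 3), a difference larger than the spread. Kng1 (kininogen) followed at 828 and 939 RPKM, Plg (plasminogen) at 710.1 and 749 RPKM, and the fifth place was held by Serpinc1 (antithrombin) at 474 RPKM in the 1340 schedule and by F2 (prothrombin) at 464 RPKM in the 2680 schedule. The lowest levels were those of C5ar1 at 0.195 and 0.176 RPKM, Pros1 (protein S, a cofactor of activated protein C) at 13.6 and 10.9 RPKM, Masp1 at 16.4 and 18.3 RPKM, C2 at 29.1 and 16.9 RPKM and F11 at 39.8 and 39.5 RPKM. Together the 35 genes took 2.90% to 3.76% of the reads on genes in livers and 0.0665% to 0.0848% in kidneys.

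Counting ignored strand and dropped reads on more than 1 gene. Another annotated gene shares 79.5% of the exon bases of Cfb, 54.9% of Masp2, 46.9% of C2, 43.2% of Klkb1, 34.4% of Serpinc1, 11.3% of Plg and 3.53% of F5, and RPKM values used the unshared bases. C4b has a near-identical copy, C4a, and its level is uncertain to that extent.

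**Figure D1:**
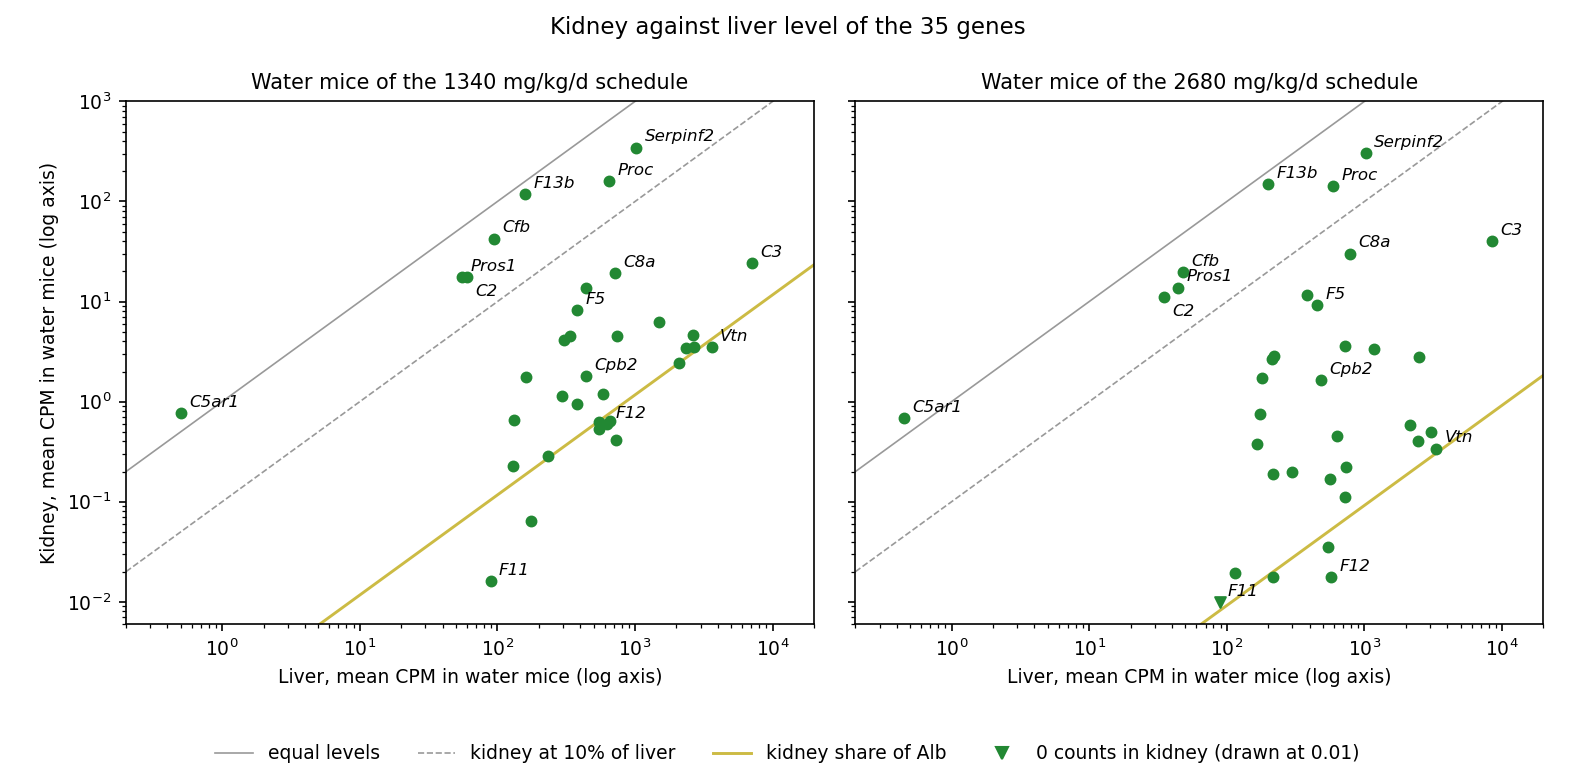
Mean CPM by library size of the 35 genes in the liver (x axis) and kidney (y axis) of water mice, on log axes, for the 1340 (n = 4) and 2680 (n = 3) schedules. The lines mark equal levels, 10% of the liver level and the kidney share of Alb (0.117% and 0.00919% of its liver level), and 7 genes lie above the 10% line in both schedules.

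The kidney held 7 members at 10% or more of their liver level in water mice, the same genes in both schedules and with either scaling. By library size these were F13b (74.9% and 74.7% of the liver level in the 1340 and 2680 schedules), Cfb (factor B, the protease of the alternative pathway, 45.2% and 40.5%), Serpinf2 (the plasmin inhibitor, 33.8% and 29.7%), Pros1 (31.4% and 31.0%), C2 (a protease of the classical and lectin pathways, 29.4% and 32.0%), Proc (protein C, an anticoagulant protease, 24.6% and 24.1%) and C5ar1 (154% and 151%). With the TMM factors of the organ comparison the shares were lower, at 37.9% and 38.4% for F13b, 22.9% and 20.7% for Cfb, 78.0% and 75.9% for C5ar1, and 12.3% to 17.1% for the others. By library size, kidney levels were 346 and 305 CPM for Serpinf2, 158 and 142 CPM for Proc and 119 and 148 CPM for F13b. Alb (albumin), an abundant hepatocyte transcript, stood at 0.117% and 0.00919% of its liver level in the same kidneys. At or below that share were 9 members in the 1340 schedule and 4 in the 2680 schedule, and these counts were equal with TMM. F11 had 1 read over the 4 water kidneys of the 1340 schedule and 0 in the 3 of the 2680 schedule, which allows up to 0.158 to 0.183 CPM per library for counting error alone.

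NMN was then compared with water within each organ and schedule. At 1340 mg/kg/d no member of the 34 tested was called in the liver by edgeR, with 0.0161% of all genes called (2 of 12449). DESeq2 called 0, with 0.573% of all genes called, and 3 members had an unadjusted p under 0.05 in edgeR, against 6.86% of all genes. The median log2 change was -0.03 over the members and 0.00 over all genes. No member had NMN and water mice without overlap, against 3.54% of all genes. C5ar1 was too low to be tested.

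F11 had the smallest p, with 101, 92.8, 77.4 and 87.2 CPM in the water livers and 58.8, 48.8, 90.5 and 53.2 CPM in the NMN livers. One NMN mouse, replicate 3, lay within the water range and the other NMN mice below it (log2 change -0.51 ± 0.18 SE, adjusted p = 0.581 in edgeR). C9, which forms the pore of the terminal complex, had 865, 732, 635 and 673 CPM in the water livers and 693, 529, 457 and 603 CPM in the NMN livers (log2 change -0.35 ± 0.15 SE, adjusted p = 0.697 in edgeR). C8b, a subunit that joins the pore before C9, had 681, 531, 509 and 461 CPM in the water livers and 535, 351, 449 and 359 CPM in the NMN livers (log2 change -0.37 ± 0.17 SE, adjusted p = 0.719 in edgeR). For C9 and C8b the groups overlapped as well. C3 had 5953, 6202, 10248 and 5651 CPM in the water livers and 9411, 8331, 7023 and 9607 CPM in the NMN livers. Water replicate 3, the liver with the high Saa1, lay above every NMN liver and the other water livers below them all (log2 change 0.29 ± 0.19 SE, adjusted p = 0.827 in edgeR). Without that library C3 had a log2 change of 0.53 ± 0.14 SE and was not called (adjusted p = 0.332 in edgeR). In that fit 0 of 35 members were called, against 0.00787% of all genes, and 6 had an unadjusted p under 0.05, against 9.86%. Groups then did not overlap for C3 and C8g, against 9.49% of all genes. By role, medians of the log2 change lay between -0.35 for the 5 terminal complement genes and 0.23 for C3 and Cfb.

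At 2680 mg/kg/d, 8 of the 35 members were called in the liver, against 7.08% of all genes (883 of 12477). Mbl1, C4bp, Vtn, Masp1, Masp2, C8g and F11 were lower (7 members, against 4.03% of all genes), and Mbl2 was higher (1 member, against 3.05%). Of the 17 complement genes 6 were called lower and 1 higher, and of the 18 coagulation and fibrinolysis genes F11 alone was called. The median log2 change was -0.27 over the members, -0.53 over the complement genes, -0.21 over the coagulation and fibrinolysis genes and 0.00 over all genes. Estimates were lower in NMN mice for 28 members, and for 49.6% of all genes.

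Groups did not overlap for 21 members, against 29.8% of all genes, with 19 lower (16% of all genes) and 2 higher (13.8%). At an adjusted p under 0.01 with a fold over 2, 0 members were called in edgeR, against 1.08% of all genes. At an unadjusted p under 0.05 there were 19, against 24.6%, and DESeq2 called 11 members, against 11.6%. Those 11 were the 8 members called in edgeR with C4b, C8b and F9.

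**Figure D2:**
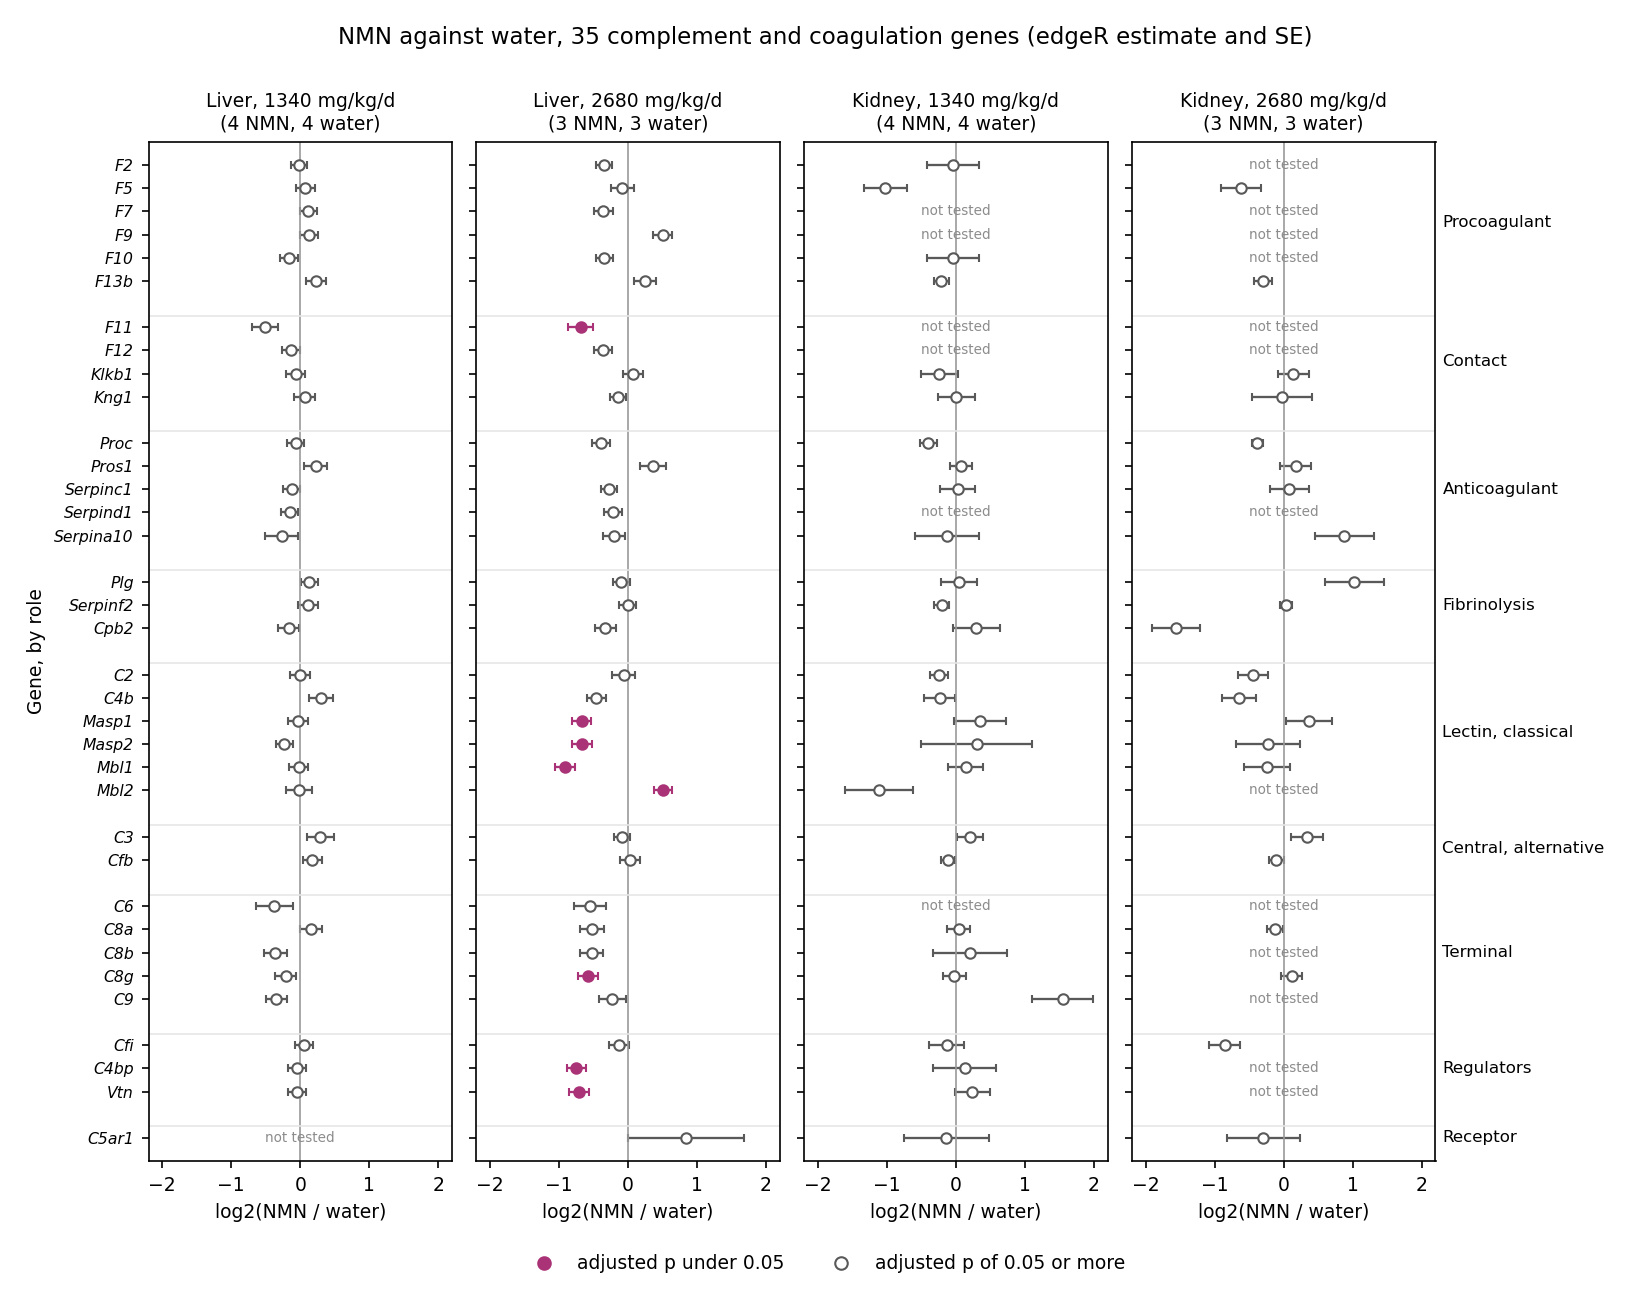
Log2 change of NMN over water (x axis) for the 35 genes, grouped by role, in the 4 comparisons, as points with SE from edgeR. Filled points have an adjusted p under 0.05: all 8 are in the liver of the 2680 schedule, and Mbl2 is the only one of them above 0.

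The lectin pathway held 4 of the calls. In it the mannose-binding lectins Mbl1 and Mbl2 attach to microbial sugars and carry the proteases Masp1 and Masp2, which cleave C4 and C2. Mbl1 had 246, 228 and 220.0 CPM in the water livers and 124, 137 and 107 CPM in the NMN livers. The NMN mice lay below every water mouse, at 53.1% of the water level (log2 change -0.91 ± 0.14 SE, adjusted p = 0.00598 in edgeR). Mbl2 had 292, 317 and 334 CPM in the water livers and 443, 440.1 and 455 CPM in the NMN livers. Here the NMN mice lay above every water mouse (log2 change 0.50 ± 0.13 SE, adjusted p = 0.0373 in edgeR).

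Masp1 had 185, 179 and 203 CPM in the water livers and 126, 127 and 102 CPM in the NMN livers, without overlap (log2 change -0.67 ± 0.14 SE, adjusted p = 0.0205 in edgeR). Masp2 had 156, 209 and 188 CPM in the water livers and 115, 118 and 116 CPM in the NMN livers, and its NMN mice were close to each other and below every water mouse (log2 change -0.66 ± 0.15 SE, adjusted p = 0.0235 in edgeR). Reads of Masp2 exclude the exon bases it shares with Tardbp. C4b, a substrate of these proteases, was not called at 1228 ± 141 CPM in water and 892 ± 59.4 CPM in NMN mice (SD, n = 3), although the groups did not overlap (log2 change -0.46 ± 0.13 SE, adjusted p = 0.0626 in edgeR). C4b was called lower in 3 of 8 alternatives (DESeq2, upper quartile scaling and no filter on low counts) and in 0 of 6 fits with a library left out. C2, the other substrate, had a log2 change of -0.07 ± 0.16 with overlap.

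The ratio of Mbl1 to Mbl2 counts within a library does not depend on the scaling of libraries. It was formed after both genes were called in opposite directions at 2680 mg/kg/d, so its values there describe those calls again. In the 2680 schedule it was 0.842, 0.718 and 0.658 in the water livers and 0.280, 0.311 and 0.236 in the NMN livers. The means were 0.739 ± 0.0938 and 0.276 ± 0.0380 (SD, n = 3). In the 1340 schedule it was 0.956, 0.685, 0.89 and 0.740 in the water livers and 0.853, 0.652, 0.847 and 0.875 in the NMN livers. Those groups overlapped, with means of 0.818 ± 0.126 and 0.807 ± 0.104 (SD, n = 4; exact two-sided permutation test, p = 0.943).

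**Figure D3:**
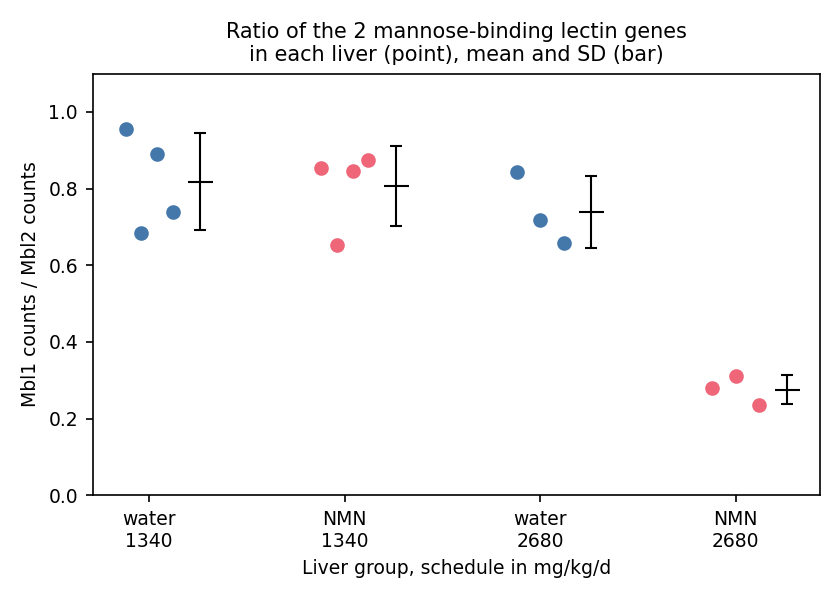
Ratio of Mbl1 counts to Mbl2 counts (y axis) in each of the 14 livers by group (x axis), with mean and SD. The 3 NMN livers of the 2680 schedule lie between 0.236 and 0.311, and all other livers lie at 0.652 or above.

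Promoter windows are shown for the lectin genes Mbl1 and Mbl2, which went in opposite directions, and for 3 called members of other roles whose windows held a searched motif. Each runs from 250 bases before to 50 bases after the start given by RefSeq in GRCm38.p6, 5′ to 3′ along the gene. The windows are chr14:41151206-41151505 on the plus strand for Mbl1, chr19:30232678-30232977 on the plus strand for Mbl2, chr1:130661569-130661868 on the minus strand for C4bp, chr11:78498870-78499169 on the plus strand for Vtn and chr8:45261982-45262281 on the minus strand for F11. Capitals mark the longest run of letters shared by the windows of Mbl1 and Mbl2, and motif matches in the others.
Mbl1: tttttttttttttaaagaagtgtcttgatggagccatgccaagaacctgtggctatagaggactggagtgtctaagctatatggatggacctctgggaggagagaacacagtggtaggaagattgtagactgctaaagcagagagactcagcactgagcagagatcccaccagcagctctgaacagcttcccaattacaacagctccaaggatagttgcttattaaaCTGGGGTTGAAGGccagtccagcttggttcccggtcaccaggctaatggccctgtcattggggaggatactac
Mbl2: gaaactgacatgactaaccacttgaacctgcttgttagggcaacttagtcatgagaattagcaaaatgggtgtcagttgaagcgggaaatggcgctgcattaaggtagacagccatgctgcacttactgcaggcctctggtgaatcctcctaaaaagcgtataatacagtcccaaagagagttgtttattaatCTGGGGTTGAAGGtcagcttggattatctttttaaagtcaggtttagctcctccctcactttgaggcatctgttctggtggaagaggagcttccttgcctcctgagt
C4bp: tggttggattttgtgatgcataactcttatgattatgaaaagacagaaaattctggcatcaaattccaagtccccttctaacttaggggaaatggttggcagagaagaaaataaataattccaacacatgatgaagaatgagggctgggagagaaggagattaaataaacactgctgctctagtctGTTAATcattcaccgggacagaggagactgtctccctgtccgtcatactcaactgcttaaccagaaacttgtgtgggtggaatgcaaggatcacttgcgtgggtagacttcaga
Vtn: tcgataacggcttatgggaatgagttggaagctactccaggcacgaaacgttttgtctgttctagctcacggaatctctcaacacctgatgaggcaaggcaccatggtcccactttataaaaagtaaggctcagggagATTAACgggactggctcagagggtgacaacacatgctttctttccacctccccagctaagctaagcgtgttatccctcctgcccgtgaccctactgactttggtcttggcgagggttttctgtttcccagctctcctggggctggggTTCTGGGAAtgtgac
F11: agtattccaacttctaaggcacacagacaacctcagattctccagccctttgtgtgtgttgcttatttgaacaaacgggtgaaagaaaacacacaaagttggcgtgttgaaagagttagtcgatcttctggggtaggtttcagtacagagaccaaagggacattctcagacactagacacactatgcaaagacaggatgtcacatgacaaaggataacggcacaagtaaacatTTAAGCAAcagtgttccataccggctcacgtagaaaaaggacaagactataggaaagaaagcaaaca

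The run shared by Mbl1 and Mbl2 is 13 bases long and begins 23 bases before the start of Mbl1 and 57 before that of Mbl2. Over the 325 pairs of member windows the longest shared run had a median of 8 bases, and 3 pairs reached 13. Windows were found for 26 of the 35 members. On both strands, the HNF1 core GTTAAT occurred in 6 of them (C4bp, C8a, C8b, F13b, F2 and Vtn), 23.1% against 7.10% of all 32851 windows. The C/EBP motif TTGCNNAA occurred in 7, F11 among them (26.9% against 10.8%). The STAT motif TTCNNNGAA occurred in 5, among them Vtn and Masp2, whose window is not shown (19.2% against 8.30%). The HNF4 motif CAAAGTCCA (0.475% of all windows) and the HNF1 palindrome, which contains the core (0.00913%), occurred in 0. The matches shown begin 64 bases before the start in C4bp, 112 before and 35 after it in Vtn, and 17 before it in F11.

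Among complement regulators, C4bp (C4b-binding protein, a cofactor for cleavage of C4b) had 621, 534 and 619 CPM in the water livers and 384, 355 and 316 CPM in the NMN livers. No NMN mouse reached the water range (log2 change -0.75 ± 0.14 SE, adjusted p = 0.0118 in edgeR). Vtn had 3703, 3741 and 3042 CPM in the water livers and 2238, 2327 and 1812 CPM in the NMN livers, likewise without overlap (log2 change -0.72 ± 0.14 SE, adjusted p = 0.0169 in edgeR). Cfi, the protease that inactivates C3b and C4b, had a log2 change of -0.14 ± 0.14 with overlap.

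The 5 terminal complement genes all had lower estimates, from -0.58 for C8g to -0.23 for C9. C8g, the lipocalin subunit of C8, was called, with 408, 454 and 352 CPM in the water livers and 285, 292 and 234 CPM in the NMN livers and no overlap (log2 change -0.58 ± 0.15 SE, adjusted p = 0.0421 in edgeR). The other C8 subunits, C8a and C8b, did not overlap between groups and were not called, with log2 changes of -0.53 ± 0.18 and -0.53 ± 0.17 (adjusted p = 0.0930 and 0.0804 in edgeR). C8b was called lower in 2 of 8 alternatives (DESeq2 and no filter on low counts) and C8a in 1 (no filter). Each was called in 1 of 6 fits with a library left out, that without NMN replicate 1. C3, on which all activation routes converge, had 8933 ± 419 CPM in water and 8432 ± 626 CPM in NMN mice (SD) with overlap (log2 change -0.08 ± 0.12 SE, adjusted p = 0.712 in edgeR). Cfb had a log2 change of 0.03 ± 0.15, and C5ar1, with at most 19 reads in a library, one of 0.84 ± 0.84.

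**Figure D4:**
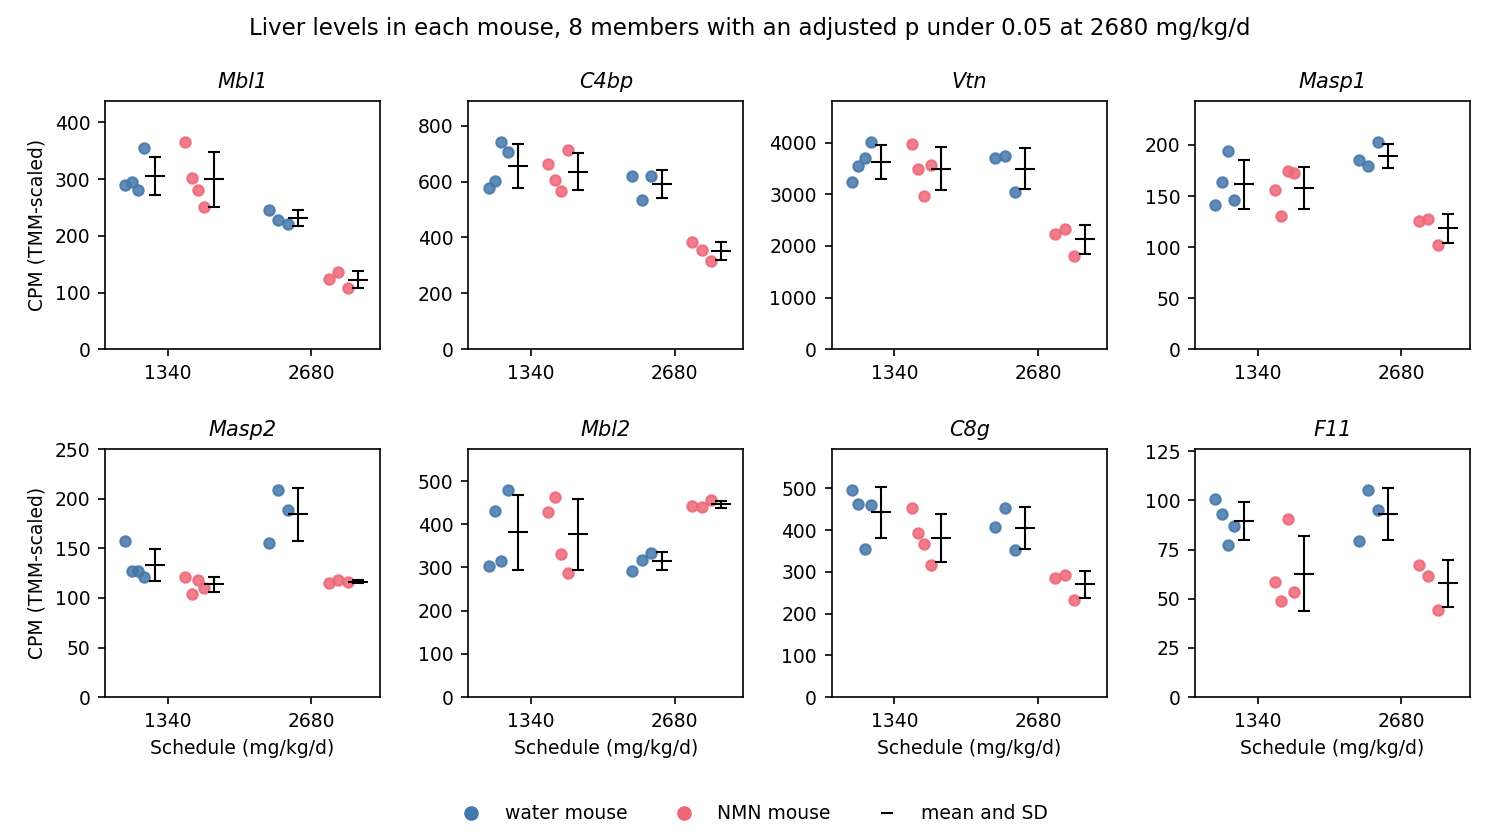
CPM (y axis, from 0) of the 8 genes called in the liver at 2680 mg/kg/d, in each water and NMN liver of both schedules (x axis), with mean and SD. At 2680 the NMN livers lie apart from the water livers in all 8 panels, above them for Mbl2 alone, and at 1340 the groups overlap in all 8.

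In the contact system, which starts clotting on charged surfaces, F11 had 79.2, 105 and 95.2 CPM in the water livers and 67.3, 61.7 and 44.5 CPM in the NMN livers. The NMN livers lay below every water liver (log2 change -0.69 ± 0.18 SE, adjusted p = 0.0464 in edgeR). F12 (factor XII), Kng1 and Klkb1 (prekallikrein) had log2 changes of -0.37 ± 0.13, -0.15 ± 0.12 and 0.07 ± 0.14 and were not called. None of the 6 vitamin K-dependent proteins was called in this fit. F2, F7, F10 and Proc had log2 changes of -0.35 ± 0.12, -0.36 ± 0.14, -0.35 ± 0.12 and -0.39 ± 0.13, without overlap between groups. F9, the factor missing in haemophilia B, had 228 ± 17.4 CPM in water and 323 ± 34.5 CPM in NMN mice (SD) and no overlap, and was above the threshold for a call (log2 change 0.50 ± 0.14 SE, adjusted p = 0.0532 in edgeR). It was called higher in 5 of 8 alternatives (DESeq2, the replicate block, no filter on low counts, at least 10 counts in every library, and all 14 livers in one fit), and in 1 of 6 fits with a library left out, that without NMN replicate 2. Pros1 had a log2 change of 0.36 ± 0.19 with overlap. The serpins Serpinc1, Serpind1 (heparin cofactor) and Serpina10 (an inhibitor of factor Xa) had -0.27 ± 0.12, -0.22 ± 0.13 and -0.20 ± 0.16. Among fibrinolysis genes, Cpb2 (a carboxypeptidase that slows fibrinolysis), Plg and Serpinf2 had -0.33 ± 0.16, -0.10 ± 0.12 and -0.01 ± 0.12, and the cofactor F5 and F13b had -0.08 ± 0.17 and 0.24 ± 0.16.

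The count of calls depended on single livers. Without NMN replicate 3 there was 1 call, Mbl1, without water replicate 2 there were 2, Mbl1 and C4bp, and without water replicate 1 or 3 there were 3. Without NMN replicate 1, the library with kidney transcripts, 9 members were called, among them 7 of the 8, and Mbl2 was not. Mbl1 was called in all 6 of these fits and C4bp in 5, whereas Mbl2 was called in 1, that without NMN replicate 2.

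Hepatocyte markers were lower in part in the same livers. Of 8 tested, Ttr (transthyretin) was called (log2 change -0.97 ± 0.13 SE, adjusted p = 0.00227 in edgeR). It was 1 of 5 with lower estimates, with Alb, the most abundant (log2 change -0.36 ± 0.11 SE, adjusted p = 0.0750 in edgeR), Apoa1, Cps1 and Serpina1a. Higher estimates were those of Pck1, the gluconeogenic enzyme (log2 change 1.04 ± 0.42 SE, adjusted p = 0.193 in edgeR), Apob and Tat. The summed level of the 8 markers, none of which was at 0, was 151020, 143280 and 140320 CPM by library size in water and 120600, 128610 and 131340 CPM in NMN livers, without overlap. Alb made up 76.5% to 80.0% of this sum, and the other 7 markers together had 30536, 32887 and 28140 CPM in water and 28332, 28731 and 26327 CPM in NMN livers, with overlap. The markers of Kupffer cells (7 tested), endothelium (4), stellate cells (4), cholangiocytes (3), neutrophils (2, with Ly6g at 0) and lymphocytes (2) held 0 calls in edgeR. Of the 7 Kupffer cell markers 6 had lower estimates, with a median log2 change of -0.36, from -0.78 ± 0.32 SE for Marco (adjusted p = 0.161 in edgeR) to 0.27 ± 0.35 SE for Adgre1, and the groups overlapped for each of them. The most abundant, Clec4f, had a log2 change of -0.36 ± 0.22 SE. Summed Kupffer cell markers were 158, 242 and 121 CPM in water and 153, 160.1 and 137 CPM in NMN livers. Their part in the result was not tested. With library size in place of TMM, the median log2 change was 0.14 over all genes, a shift of 0.14, and -0.12 over the members.

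Of 51 further genes of both systems, 43 could be tested in these livers, and 4 were called lower in edgeR, against 4.03% of all genes. Ggcx, the carboxylase that makes vitamin K-dependent factors functional, had 23.5, 18.6 and 19.5 CPM in the water livers and 8.02, 9.56 and 9.20 CPM in the NMN livers. Every NMN liver lay below every water liver (log2 change -1.20 ± 0.19 SE, adjusted p = 0.00598 in edgeR), whereas at 1340 mg/kg/d it was not called (log2 change -0.24 ± 0.24 SE, adjusted p = 0.901 in edgeR). Vkorc1, which recycles vitamin K, had a log2 change of -0.08 ± 0.15. Cpn1, a carboxypeptidase subunit that acts on complement peptides, had 299 ± 9.87 CPM in water and 204 ± 13.9 CPM in NMN mice (log2 change -0.55 ± 0.13 SE, adjusted p = 0.0303 in edgeR). The thrombin receptor F2r and the thrombin inhibitor Serpine2 fell with log2 changes of -0.92 ± 0.22 and -1.26 ± 0.33 (adjusted p = 0.0322 and 0.0442 in edgeR).

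At 1340 mg/kg/d, 0 of 43 were called in the liver by edgeR. The smallest p-values were those of Thbd (thrombomodulin) at 1.80 ± 0.637 CPM in water and 5.40 ± 2.63 CPM in NMN mice (log2 change 1.58 ± 0.44 SE, adjusted p = 0.388 in edgeR) and of Cd55, a complement inhibitor on cell surfaces (log2 change 0.68 ± 0.23 SE, adjusted p = 0.510 in edgeR).

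Of 25 listed liver regulators and acute phase genes, 5 were called in edgeR in the livers of the 2680 schedule, against 7.08% of all genes, with 1 higher and 4 lower. Il6ra, a receptor subunit for interleukin 6, had 15.8, 32.8 and 34.6 CPM in the water livers and 53.8, 68.1 and 87.2 CPM in the NMN livers. It was higher in every NMN liver (log2 change 1.33 ± 0.29 SE, adjusted p = 0.0295 in edgeR). At 1340 mg/kg/d its groups did not overlap either, and it was not called (log2 change 0.97 ± 0.25 SE, adjusted p = 0.367 in edgeR). The transcription factor Cebpa and the growth hormone receptor Ghr fell (log2 change -0.59 ± 0.16 SE, adjusted p = 0.0489 in edgeR; log2 change -0.57 ± 0.14 SE, adjusted p = 0.0374 in edgeR), as did the acute phase genes Apcs and Itih4, with log2 changes of -0.97 ± 0.19 and -0.56 ± 0.12 (adjusted p = 0.0148 and 0.0194 in edgeR). Of the 6 acute phase genes listed, 5 had lower estimates. The acute phase gene Hp had a higher one, with overlap (log2 change 0.36 ± 0.18 SE, adjusted p = 0.241 in edgeR). Saa1 had 997, 280.4 and 601 CPM in the water livers and 216, 18.8 and 73.2 CPM in the NMN livers, without overlap and without a call (log2 change -2.61 ± 1.04 SE, adjusted p = 0.214 in edgeR). Hnf4a, a regulator of many liver genes, was not called at 2680 (log2 change 0.57 ± 0.17 SE, adjusted p = 0.0663 in edgeR) or at 1340 mg/kg/d (log2 change 0.68 ± 0.13 SE, adjusted p = 0.117 in edgeR), without overlap of the groups in either schedule. Cebpb went the other way from Cebpa at 2680 mg/kg/d, without overlap and without a call (log2 change 1.01 ± 0.29 SE, adjusted p = 0.0660 in edgeR). Of the 19 listed regulators, 13 had higher and 6 lower estimates at 2680 mg/kg/d, with a median log2 change of 0.30. At 1340 mg/kg/d 0 of the 25 were called in edgeR, and Cebpa, Ghr, Apcs and Itih4 had log2 changes of -0.49 ± 0.20, -0.14 ± 0.13, -0.12 ± 0.46 and 0.08 ± 0.37, with overlap.

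Whether the NMN effect differed between schedules was tested over the 14 livers. In edgeR 0 of 35 members were called, against 0.0746% of all genes, and 10 had an unadjusted p under 0.05, against 8.6%. The smallest p was that of Mbl1, with a difference in log2 change (2680 minus 1340) of -0.88 ± 0.20 (adjusted p = 0.113 in edgeR), followed by C4bp with -0.70 ± 0.18 and Vtn with -0.66 ± 0.19 (adjusted p = 0.196 and 0.287). DESeq2 called 2 members, Mbl1 and C4bp (adjusted p = 0.0124 and 0.0407), against 0.86% of all genes.

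In the kidney, edgeR called 0 members in either schedule. At 1340 mg/kg/d 29 members were tested, with 0.12% of all genes called, and at 2680 mg/kg/d 22, with 0.4%. An unadjusted p under 0.05 was found for 4 and 6 members, against 8.94% and 11.1% of all genes. DESeq2 called 0 of 21 and 2 of 23, Proc and Cpb2, against 1.23% and 1.52%. Groups did not overlap for 3 members at 1340 (C9, Proc and Mbl2), against 5.1% of all genes, and for 6 at 2680, against 17.1%. The median log2 change of the members was -0.02 and -0.12.

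Proc had 186, 133, 140.4 and 179.8 CPM in the water kidneys and 128, 101, 128 and 127 CPM in the NMN kidneys at 1340 mg/kg/d (log2 change -0.40 ± 0.12 SE, adjusted p = 0.262 in edgeR). At 2680 mg/kg/d it had 143, 138 and 146 CPM in the water kidneys and 99.8, 118 and 109 CPM in the NMN kidneys (log2 change -0.38 ± 0.08 SE, adjusted p = 0.0736 in edgeR). In each schedule every NMN kidney lay below every water kidney, and neither difference was called. In the liver the log2 change of Proc was -0.07 ± 0.13 at 1340 and -0.39 ± 0.13 at 2680. The 4 proximal tubule markers had lower estimates in NMN kidneys in both schedules, without a call in edgeR. Their summed level, most of it Slc34a1, was 10770.0, 9974, 10551 and 9192 CPM in water and 8763, 8396, 8864 and 8403 CPM in NMN kidneys at 1340. At 2680 it was 8007, 7791 and 8118 CPM in water and 5699.7, 7227 and 6716 CPM in NMN kidneys. The 4 loop and distal markers had higher estimates at 1340, with a median log2 change of 0.23 and no call in edgeR. Their summed level there was 3857.5 to 4613.6 CPM in water and 4881.4 to 5467.4 CPM in NMN kidneys. At 2680, 3 of these 4 were higher, with a median log2 change of 0.02. Both podocyte markers had higher estimates in each schedule, without a call in edgeR. The part of these markers in the result was not tested.

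F5, a cofactor of factor Xa, had 6.61, 8.86, 11.6 and 5.58 CPM in the water kidneys and 2.79, 4.58, 6.48 and 2.24 CPM in the NMN kidneys at 1340 mg/kg/d. NMN replicate 3 lay within the water range (log2 change -1.02 ± 0.32 SE, adjusted p = 0.301 in edgeR). At 2680 mg/kg/d F5 had 9.32 ± 1.92 CPM in water and 6.09 ± 2.54 CPM in NMN mice (SD), with overlap. Cpb2 at 2680 mg/kg/d had 1.63, 1.62 and 1.68 CPM in the water kidneys and 0.336, 0.613 and 0.687 CPM in the NMN kidneys, on 8 to 31 reads per library. The groups did not overlap (log2 change -1.56 ± 0.34 SE, adjusted p = 0.0781 in edgeR), and at 1340 mg/kg/d the estimate was 0.30 ± 0.35. Cfi at 2680 mg/kg/d had 4.20, 3.19 and 3.42 CPM in the water kidneys and 1.72, 1.93 and 2.3 CPM in the NMN kidneys, without overlap (log2 change -0.85 ± 0.23 SE, adjusted p = 0.150 in edgeR).

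C9 at 1340 mg/kg/d had 0.601, 0.377, 0.455 and 0.256 CPM in the water kidneys and 0.979, 1.18, 1.49 and 1.33 CPM in the NMN kidneys, on 4 to 21 reads per library. Every NMN kidney lay above every water kidney (log2 change 1.55 ± 0.44 SE, adjusted p = 0.227 in edgeR). In the same kidneys and with the TMM factors, Alb had 75.1, 81.7, 91.7 and 105 CPM in the water kidneys and 97.5, 122, 81.6 and 108 CPM in the NMN kidneys, with overlap (log2 change 0.21 ± 0.13 SE, adjusted p = 0.666 in edgeR). Of the 8 genes listed as hepatocyte markers and tested in these kidneys, 7 had higher estimates and Ttr a lower one, with a median log2 change of 0.31. The largest was 0.67 for Pck1, which had 4042 CPM in the water kidneys by library size, 194% of its liver level. Apob, Ttr and Serpina1a stood at 3.31%, 1.63% and 1.41% of their liver levels, against 0.117% for Alb. In the kidney these genes therefore do not mark hepatocyte RNA alone. None of the 8 was called in edgeR, and their part in the result was not tested. The other members with a kidney level of at least 10% of the liver level were not called. At 1340 and 2680 mg/kg/d the log2 change was -0.21 ± 0.10 and -0.30 ± 0.13 for F13b, -0.21 ± 0.10 and 0.04 ± 0.09 for Serpinf2, -0.24 ± 0.14 and -0.44 ± 0.21 for C2, -0.12 ± 0.10 and -0.11 ± 0.11 for Cfb, and 0.07 ± 0.16 and 0.17 ± 0.22 for Pros1.

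**Figure D5:**
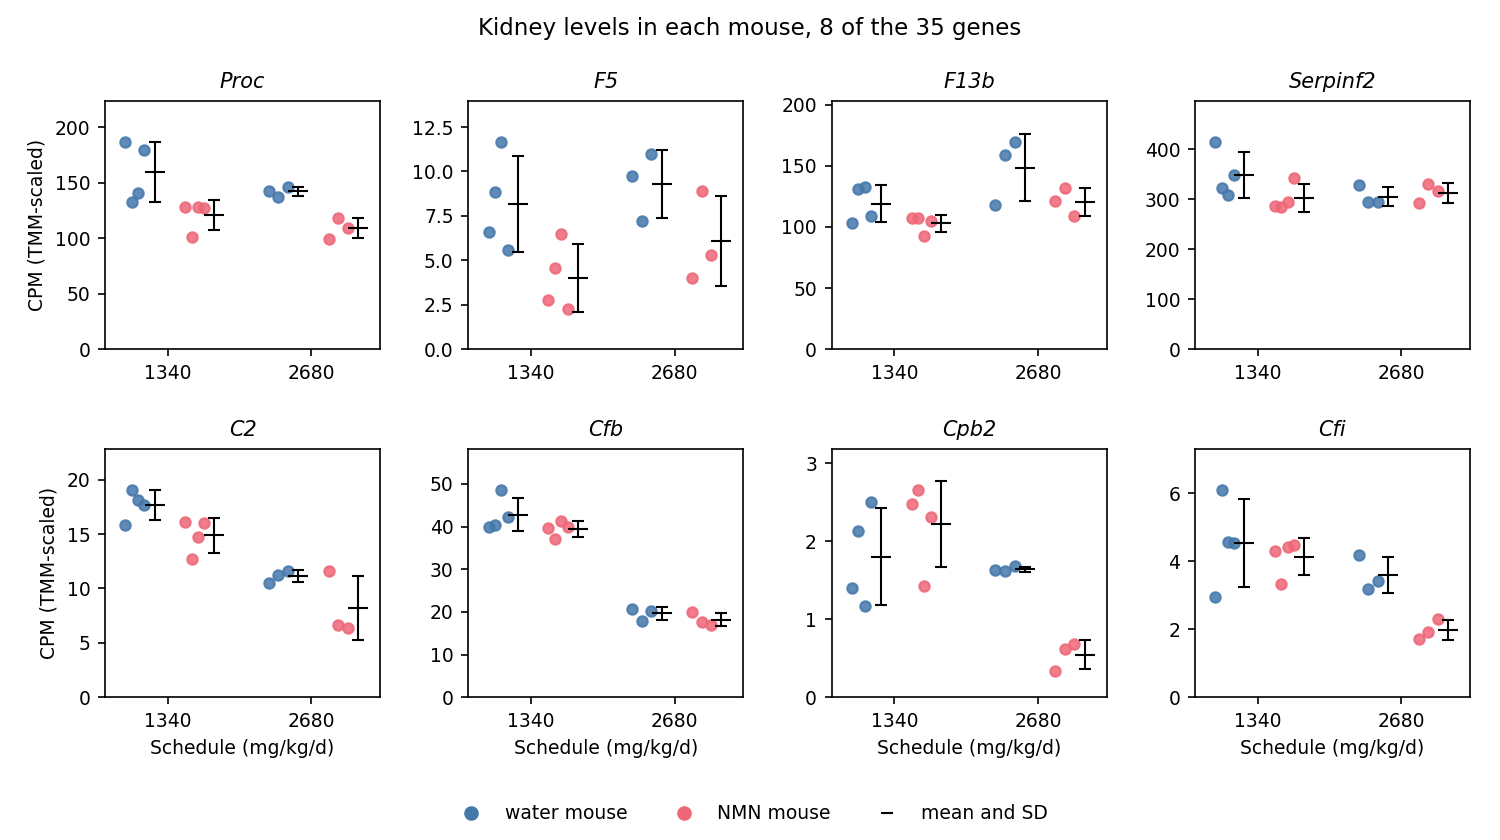
Kidney CPM (y axis, from 0) of 8 of the genes in each water and NMN kidney of both schedules (x axis), with mean and SD. For Proc every NMN kidney lies below every water kidney of its schedule, and for Cpb2 and Cfi this holds at 2680 mg/kg/d.

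Of the further genes of both systems, 44 were tested in the kidney at 1340 and 43 at 2680 mg/kg/d, and edgeR called 0. At 1340 Kng2, a kininogen, was among those with the smallest p (log2 change 0.25 ± 0.09 SE, adjusted p = 0.395 in edgeR). At 2680 the smallest p-values were those of Cpn1, at 84.1 ± 3.28 CPM in water and 51.9 ± 10.7 CPM in NMN mice (log2 change -0.69 ± 0.13 SE, adjusted p = 0.0544 in edgeR), and of clusterin, Clu, an inhibitor of the terminal complex (log2 change 0.35 ± 0.09 SE, adjusted p = 0.155 in edgeR).

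Between schedules, 0 of 30 members tested differed in the kidney in edgeR, against 0.00625% of all genes. There were 2 with an unadjusted p under 0.05 (against 4.62%) and 0 in DESeq2 (against 0.0774%). Between organs at 1340 mg/kg/d 0 of 35 differed, against 0% of all genes, with 5 at an unadjusted p under 0.05 (against 5.79%). Only 29 members had enough reads to be tested in the kidney alone at this dose. F9, among the 5, entered through the liver, with 0 to 2 reads per water kidney, so no difference between organs is read from it. The nearest to a call was C9, with a difference (liver minus kidney) of -1.91 ± 0.32 (adjusted p = 0.0518 in edgeR), which DESeq2 called (1 member, against 0.174%). At 2680 mg/kg/d 1 member, Cpb2, differed between organs, against 2.65% of all genes. Its log2 change was -0.33 ± 0.16 for liver and -1.56 ± 0.34 for kidney, with a difference of 1.20 ± 0.30 when both were fitted together (adjusted p = 0.0485 in edgeR), and this call was lost with the replicate block (adjusted p = 0.0894 in edgeR) and under other alternatives. An unadjusted p under 0.05 was found for 9 members (against 19.4%), and DESeq2 called 5 (against 7.67%). Only 22 members had enough reads to be tested in the kidney alone at this dose, and the others entered through the liver. Those others include C6 and Vtn among the 9, and C6 among the 5, so no difference between organs is read from them. C4bp, Vtn, Mbl2 and F11, called in the liver at this dose, had too few reads in the kidney to be tested there.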

How the data were processed

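Samples were assigned to organ, schedule, treatment and replicate by their labels. PolyA reads were aligned by the authors with STAR, and HTSeq-count gave the deposited raw counts (intersection-strict, strand ignored) for 54446 gene identifiers. The build named in the article matches no mouse assembly. The 5 HTSeq summary lines were left out. Symbols and exon overlaps came from GENCODE M21 (53229 identifiers matched with version, 1180 without, 37 unmatched). Counts were tested in R 4.3.3 with edgeR 4.0.16 (filterByExpr, TMM, robust quasi-likelihood test, Benjamini-Hochberg adjustment). The SE is the size of the log2 change divided by the square root of F. Organ and schedule differences were interaction terms. Replicates were taken as separate mice, which the labels do not state, and p-values measure the spread between these samples. The code was tested on simulated data. Alternatives were DESeq2 1.42.0, other scalings, filters and thresholds, no robust option, a replicate block, all libraries of an organ, and each library left out. A fit by library size alone, for liver against kidney, was added after seeing the data. Floors (3 counts) cover counting error only, since reads carried no molecular identifiers.

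The members and lists were chosen with earlier results of these data known. Values in every mouse are given for called members and for the 3 with the smallest p in each NMN comparison. Levels are given for the 5 highest and 5 lowest members and for those with a kidney level of at least 10% of the liver. Further pathway genes are named where called, at most 8 per comparison, and otherwise the 2 with the smallest p. A further pathway gene that this rule would name is not reported here. Vkorc1, Hnf4a, Saa1, F9, C4b, C3 at 1340 mg/kg/d, the ratio of Mbl1 to Mbl2 and the kidney genes plotted beyond this rule were chosen after their values were seen. The same holds for Hp, for Cebpb and, in the kidney, for Pck1.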

Additional observations from a re-analysis of the deposited data

Results flagged for a closer look

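In the kidney at 1340 mg/kg/d, Proc (protein C) in NMN replicate 2 stood at 101 CPM, apart from the other NMN kidneys at 127 to 128 CPM. Its gap to the nearest of them exceeded Dixon's critical value for 4 samples, in 1 of 12 groups examined. Chance alone gives about 1 in 20 for each group, so 1 such group among 12 is not unusual. At 2680 mg/kg/d the NMN effect on Cpb2 differed between liver and kidney by 1.20 on the log2 scale in edgeR's interaction test, where the kidney values rest on 8 to 31 reads per library.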

How the results depend on the processing

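In the liver at 2680 mg/kg/d the 8 calls became 13 without a filter on low counts, 0 at the stricter threshold and 19 at an unadjusted p under 0.05, and ran from 1 to 9 with each library left out. The other alternatives gave 7 to 11. Mbl2 missed the threshold with upper quartile scaling and with all 14 livers in one fit, and F11 with DESeq2's size factors, without the robust option and with all 14 livers. In the liver at 1340 mg/kg/d the unadjusted p gave 3 calls and no other alternative any. In the kidney at 1340 mg/kg/d the calls were 2 without the filter (Proc and F5) and 4 at the unadjusted p. In the kidney at 2680 mg/kg/d they were 2 with DESeq2, 3 without the filter (Proc, Cpb2 and F5), 6 at the unadjusted p and 0 to 1 with each library left out (C2, without NMN replicate 1). The median kidney change there was -0.037 with DESeq2 and -0.00033 without the filter, and ran from -0.19 to 0.0071 with libraries left out, and from -0.098 to 0.043 at 1340 mg/kg/d. DESeq2 called 2 members in the schedule comparison of the liver, 1 in the organ comparison at 1340 and 5 at 2680 mg/kg/d, and the unadjusted p gave 10, 5 and 9, and 2 in the schedule comparison of the kidney. The organ comparison gave 0 to 1 calls at 1340 (C9, without liver water replicate 1 or 3 or liver NMN replicate 1 or 4) and 0 to 3 at 2680 mg/kg/d with each library left out. Its call of Cpb2 was lost (0 calls) with DESeq2's size factors, without the robust option and with the block, and kept in 2 of the 12 fits with a library left out. The cause was not tested.

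Replicate numbers in the labels mark no shared handling, and same-numbered libraries correlated from -0.13 to 0.24 between NMN and water in their deviations from the group means. Between organs the 7 same-numbered pairs of water mice correlated from 0.093 to 0.28, and each water liver correlated best with the kidney of its own number, a hint from the data that both organs came from 1 mouse. The 7 NMN pairs ran from -0.017 to 0.18, with 3 best with their own number. The labels do not state such pairing, and the organ tests treat the libraries as independent. With the replicate number as a block, 9 members were called in the liver at 2680 mg/kg/d (F9 in addition), 1 in the kidney at 1340 mg/kg/d (F5, adjusted p = 0.0435 in edgeR) and 0 in the organ comparison at 2680 mg/kg/d, and no other count changed. The liver against kidney difference held for 34 members under every alternative. Low counts limit the kidney: 3 reads correspond to 0.0886 to 0.228 CPM.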
